A study of Mus musculus with 12 samples.

Results

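The Polycomb genes described here are 10 subunits of Polycomb repressive complexes 1 and 2 (PRC1 and PRC2), chosen by name as Phc1, Phc2, Bmi1, Pcgf2, Cbx7, Cbx2, Ring1, Ezh1, Ezh2 and Suz12 among 22180 genes with a probe set of their own. They were measured in LSK cells (Lin-Sca1+Kit+), the sorted bone marrow population in which haematopoietic stem cells and multipotent progenitors are found. Cells were sorted from C57BL/6 mice that were either wild type or Mll5-/-, offspring of Mll5+/- parents. Mll5 is the older name of Kmt2e. Mice of each genotype went without N-acetyl-L-cysteine (NAC), called mock, or drank it at 1 g per liter of water, as a scavenger of reactive oxygen, starting when their parents were mated and lasting through life. The 4 groups, wild-type mock, mutant mock, wild-type NAC and mutant NAC, had 3 arrays each. The labels give no age or sex. They also do not state that each array is a different mouse or pool of mice, so the p-values rest on a spread that may be technical.

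Polycomb complexes keep genes silent through chromatin. PRC2 methylates histone H3 through its catalytic subunits Ezh1 or Ezh2, with Suz12 as the scaffold that holds the complex together. PRC1 binds that mark through a Cbx protein, places ubiquitin on histone H2A through Ring1 or Rnf2 with a Pcgf partner such as Bmi1 or Pcgf2, and compacts chromatin through Phc proteins. In blood stem cells Bmi1 is known for its need in self-renewal and for silencing Cdkn2a. Mll5 carries the name of the MLL family, relatives of the Trithorax proteins that oppose Polycomb silencing in development.

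Each member had 1 probe set, and none shared it with another gene symbol. All 10 had a mean log2 signal at or above the median gene level of 3.17, the lowest being Bmi1 at 3.64, so no member was lost to a filter on dim genes. Signals of different genes are not compared, since probes differ in how well they bind.

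The 12 arrays had median log2 signals of 2.89 to 2.96 and correlated pairwise at 0.976 to 0.988. Replicate 1 of wild-type mock and replicate 1 of mutant NAC had the lowest limma array weights, 0.71 and 0.54. The other arrays had weights of 0.87 to 1.35. The targeted gene Kmt2e gave 7.27 ± 0.30 (SD, n = 3) in mutant mock and 7.52 ± 0.15 in wild-type mock, and 7.12 ± 0.18 against 7.55 ± 0.21 with NAC. Which part of the gene was deleted and which part its probe set reads are not given, so this is no check of the labels. Of the surface markers that define the sort, Kit lay between 8.74 and 9.24 on all arrays, while the gene of Sca1, Ly6a, could not be read since no probe set carries its symbol alone. Among markers of other cells, a mean under the median gene level was found for 5 of 6 T cell genes, 4 of 6 mature neutrophil genes, 1 of 5 B cell genes, 1 of 7 megakaryocyte genes, 0 of 3 erythroid genes and 0 of 6 granulocyte and monocyte progenitor genes. In RNA from whole sorted populations, fewer cells of a type and less RNA per cell cannot be told apart.

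Promoter windows are shown for Phc1, the member with the smallest p-value of any comparison, and for Ezh1 and Suz12, which differed in opposite directions between the genotypes in mock cells. They are the 250 bases before the start of each gene on the gene's own strand, read 5′ to 3′ from RefSeq sequences of the build named, with every CpG in capitals.
Phc1, GRCm38.p6 chr6:122340228-122340477, minus strand: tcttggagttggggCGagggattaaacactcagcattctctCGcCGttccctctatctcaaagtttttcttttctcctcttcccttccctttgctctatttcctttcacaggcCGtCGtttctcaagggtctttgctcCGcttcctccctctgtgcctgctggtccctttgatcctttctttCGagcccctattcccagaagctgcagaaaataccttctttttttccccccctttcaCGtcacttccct
Ezh1, GRCm38.p6 chr11:101226464-101226713, minus strand: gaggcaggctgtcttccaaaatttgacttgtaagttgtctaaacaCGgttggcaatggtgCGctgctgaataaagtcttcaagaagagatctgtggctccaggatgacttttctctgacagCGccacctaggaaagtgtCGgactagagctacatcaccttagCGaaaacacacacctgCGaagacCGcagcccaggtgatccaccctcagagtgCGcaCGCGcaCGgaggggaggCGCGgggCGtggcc
Suz12, GRCm38.p6 chr11:79992856-79993105, plus strand: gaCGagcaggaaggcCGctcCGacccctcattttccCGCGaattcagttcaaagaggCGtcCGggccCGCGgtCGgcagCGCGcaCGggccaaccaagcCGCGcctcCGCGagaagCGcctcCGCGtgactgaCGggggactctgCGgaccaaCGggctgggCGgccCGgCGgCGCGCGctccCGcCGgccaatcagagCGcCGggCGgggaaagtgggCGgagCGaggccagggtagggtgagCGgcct
The Suz12 window held 37 CpGs, the Ezh1 window 14 and the Phc1 window 8, against a median of 6 over 32851 windows of the same length. Of the 10 members, 9 had a window, all but Cbx2, and they had 11 in all since Phc2 has 3 annotated starts. At least 16 CpGs were found in 6 of these 11 windows, those of Bmi1, Ezh2, Suz12, Cbx7, Ring1 and 1 start of Phc2, as in 25.4% of all windows. Of these 6, the Ezh2, Cbx7 and Phc2 windows had 240, 250 and 250 bases inside the annotated gene. They therefore precede a start within it. The Pcgf2 window and those of the other Phc2 starts also lay partly or wholly inside. The windows shown had 0 such bases, and only windows of that kind were printed. CpG-rich promoters are common among widely expressed genes, and the counts describe these windows only.

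**Figure D1:**
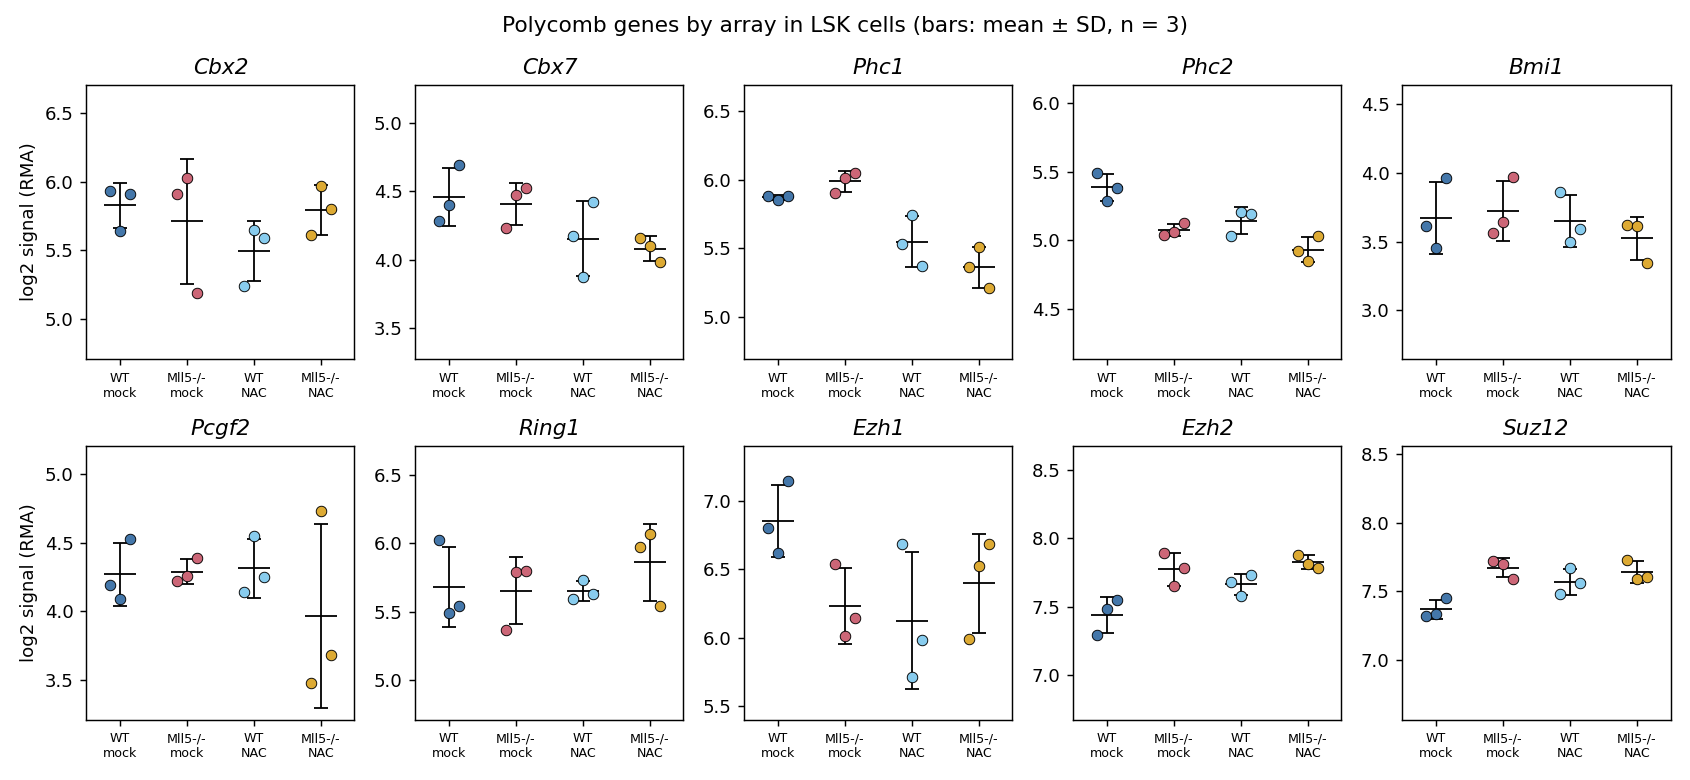
Log2 signal (RMA) of each of the 10 Polycomb genes on the 12 arrays, 1 point per array, by genotype and treatment, with bars for the mean ± SD (n = 3); every panel spans 2 log2 units. Phc1 lay between 5.85 and 6.05 on the mock arrays and between 5.21 and 5.74 on the NAC arrays, and Ezh1 was highest on the wild-type mock arrays, 1 NAC array of each genotype reaching into their range.

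None of the 10 members passed limma's test (Benjamini-Hochberg adjusted p under 0.05 over 22180 genes) in any of 7 comparisons, and differences are therefore given as sizes with their errors. For the genotype over both treatments the test called 0.00902% of all genes. It called 0.00902% for the genotype in mock and 0% for the genotype in NAC. For NAC against mock it called 0.00451% over both genotypes, 0.00451% in the mutant and 0.00902% in wild type, and 0% for the interaction of genotype and NAC. The members' smallest adjusted p was 0.158, that of Phc1 with NAC.

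Phc1 and Phc2 are polyhomeotic genes, whose products let PRC1 assemble into larger clusters. Phc1 was lower with NAC in both genotypes. Its log2 signals were 5.88, 5.85 and 5.88 in wild-type mock, 5.90, 6.01 and 6.05 in mutant mock, 5.53, 5.74 and 5.37 in wild-type NAC and 5.36, 5.51 and 5.21 in mutant NAC. All 6 NAC arrays lay below all 6 mock arrays. The difference over both genotypes was -0.48 (SE 0.09, 95% interval -0.67 to -0.28, 1.39-fold lower, unadjusted p = 0.000149, limma adjusted p = 0.158). Phc1 was the only one of the 10 members without overlap between NAC and mock over both genotypes, where 0.338% of all genes had none. The difference was -0.63 (SE 0.13, limma adjusted p = 0.406) in the mutant and -0.32 (SE 0.13, limma adjusted p = 0.804) in wild type. These 2 differences were themselves not told apart: the interaction was -0.30 (95% interval -0.69 to 0.08, unadjusted p = 0.115). Without both arrays of lowest weight, Phc1 differed by -0.47 with NAC over both genotypes (limma adjusted p = 0.223). Between genotypes its difference was -0.04 (95% interval -0.23 to 0.16) over both treatments. In mock it was 0.12 (95% interval -0.16 to 0.39, limma adjusted p = 0.909).

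Phc2, the second polyhomeotic gene, was lower in the mutant and lower with NAC, by less than Phc1 with NAC. Wild-type mock arrays read 5.49, 5.29 and 5.38 and mutant mock arrays 5.04, 5.06 and 5.13. With NAC the wild type read 5.03, 5.21 and 5.19 and the mutant 4.92, 4.85 and 5.03. In mock the genotypes did not overlap, while in NAC the highest mutant array equalled the lowest wild-type array. The genotype difference over both treatments was -0.26 (SE 0.08, 95% interval -0.43 to -0.09, 1.20-fold lower, unadjusted p = 0.00617, limma adjusted p = 0.339), and it was -0.23 (limma adjusted p = 0.521) without both arrays of lowest weight. With NAC over both genotypes Phc2 differed by -0.19 (SE 0.08, limma adjusted p = 0.61).

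Of the Cbx genes, which encode the chromodomain readers of methylated histone H3, Cbx7 was lower with NAC. Cbx7 read 4.28, 4.40 and 4.69 in wild-type mock, 4.23, 4.47 and 4.52 in mutant mock, 4.17, 3.87 and 4.42 in wild-type NAC and 4.16, 4.10 and 3.98 in mutant NAC. The mutant arrays with NAC lay below the mutant mock arrays, and in wild type both treatments overlapped. Over both genotypes Cbx7 differed by -0.32 with NAC (SE 0.11, 95% interval -0.56 to -0.07, unadjusted p = 0.0152, limma adjusted p = 0.526). Its genotype difference was -0.06 (95% interval -0.31 to 0.18). Cbx2 read 5.93, 5.64 and 5.91 in wild-type mock, 5.91, 6.03 and 5.19 in mutant mock, 5.24, 5.65 and 5.59 in wild-type NAC and 5.61, 5.97 and 5.80 in mutant NAC. Mutant mock replicate 3 was the lowest of all 12 arrays, so that group spread more (SD 0.45) than the other groups (SD 0.16 to 0.22). Cbx2 differed by 0.09 between genotypes (95% interval -0.22 to 0.41) and by -0.13 with NAC (95% interval -0.44 to 0.19). Without mutant mock replicate 3 these were 0.22 and -0.26, and without mutant mock replicate 2 they were 0.012 and -0.045, the ends of the ranges when single arrays were left out.

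Bmi1 and Pcgf2, alternative Pcgf partners in PRC1, and Ring1, one of its ubiquitin ligases, overlapped between groups in every comparison. Bmi1 lay between 3.34 and 3.97 over all arrays. Its difference was -0.04 between genotypes (95% interval -0.29 to 0.22) and -0.11 with NAC (95% interval -0.37 to 0.14). Pcgf2 read 3.48, 4.73 and 3.68 in mutant NAC, both the lowest and the highest of its 12 signals, against 4.09 to 4.55 on the other 9 arrays. Its genotype difference in NAC was -0.35 (SE 0.26, limma adjusted p = 0.818), -0.73 without mutant NAC replicate 2 and -0.11 without mutant NAC replicate 1. Ring1 lay between 5.37 and 6.07, and differed by 0.09 (95% interval -0.19 to 0.37) between genotypes and by 0.09 (95% interval -0.19 to 0.37) with NAC.

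**Figure D2:**
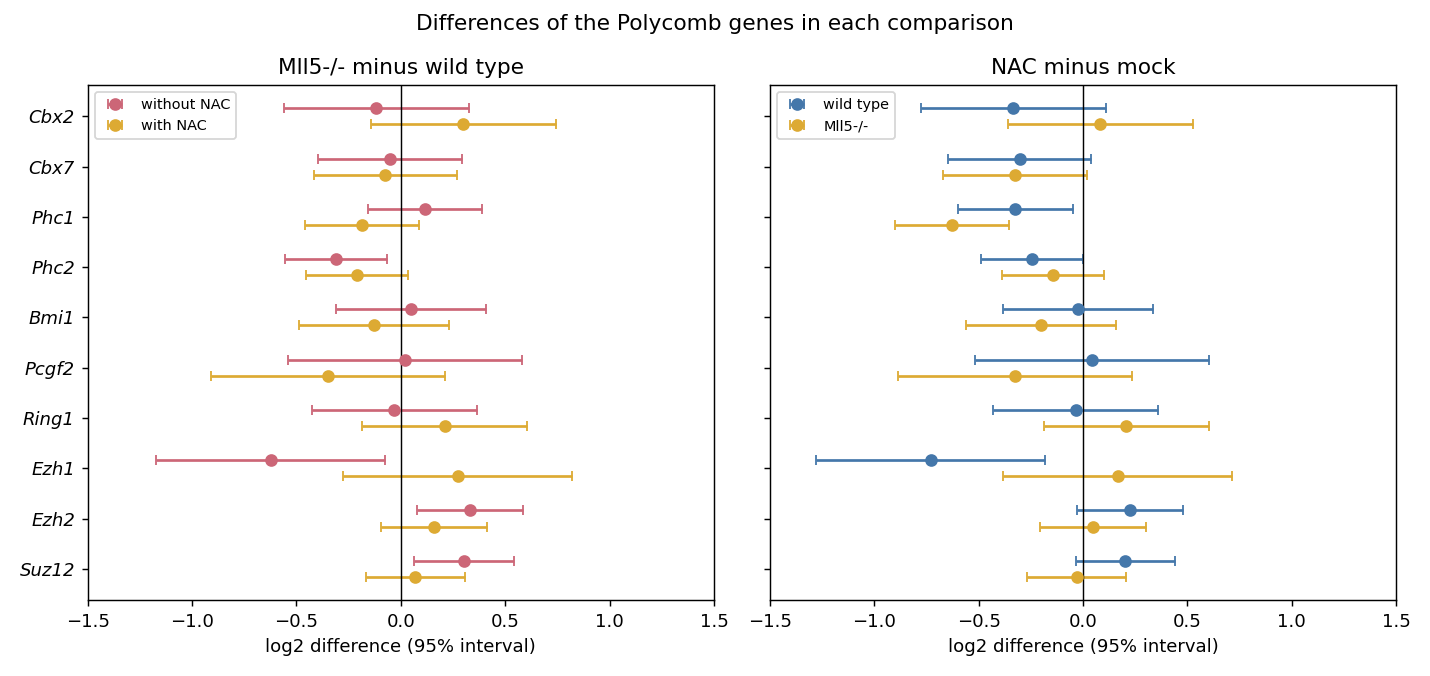
Log2 differences with 95% intervals (limma) for each of the 10 Polycomb genes, mutant minus wild type in mock and in NAC on the left, and NAC minus mock in wild type and in the mutant on the right. With NAC, Phc1 was -0.63 in the mutant and -0.32 in wild type, while Ezh1 was -0.62 for the genotype in mock and 0.27 for the genotype in NAC; no difference passed the adjusted threshold.

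Among the PRC2 genes, Ezh2 and Suz12 were higher in mutant than in wild-type mock cells and Ezh1 was lower. Ezh2, the main methyltransferase of dividing cells, read 7.29, 7.48 and 7.55 in wild-type mock and 7.89, 7.65 and 7.78 in mutant mock. With NAC it read 7.68, 7.58 and 7.73 in wild type and 7.88, 7.81 and 7.78 in the mutant. Mutant arrays lay above wild-type arrays within each treatment, though mutant mock replicate 2 lay below wild-type NAC replicates 1 and 3. The genotype difference was 0.33 in mock (SE 0.12, 95% interval 0.08 to 0.59, 1.26-fold higher, unadjusted p = 0.014, limma adjusted p = 0.677) and 0.16 in NAC (SE 0.12, limma adjusted p = 0.815). Over both treatments it was 0.25 (SE 0.08, unadjusted p = 0.0109, limma adjusted p = 0.389), and 0.20 (limma adjusted p = 0.584) without both arrays of lowest weight. NAC against mock gave 0.14 over both genotypes (95% interval -0.04 to 0.32).

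Suz12, the scaffold subunit, was likewise higher in the mutant in mock. Its signals were 7.32, 7.33 and 7.45 in wild-type mock, 7.72, 7.70 and 7.59 in mutant mock, 7.48, 7.67 and 7.56 in wild-type NAC and 7.73, 7.59 and 7.60 in mutant NAC. The mock genotypes did not overlap and the NAC genotypes did. The genotype difference was 0.30 in mock (SE 0.11, 1.23-fold higher, unadjusted p = 0.0166, limma adjusted p = 0.677), 0.07 in NAC (95% interval -0.17 to 0.31) and 0.19 over both treatments (SE 0.08, limma adjusted p = 0.498). With NAC over both genotypes it differed by 0.09 (95% interval -0.08 to 0.26).

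Ezh1, the second methyltransferase and the one typical of resting cells, had its highest group mean in wild-type mock cells. It read 6.80, 6.62 and 7.14 there, 6.54, 6.01 and 6.14 in mutant mock, 6.68, 5.71 and 5.98 in wild-type NAC and 5.99, 6.52 and 6.68 in mutant NAC. Mutant mock arrays lay below wild-type mock arrays, while 1 array in each NAC group reached the wild-type mock range. The mutant differed from wild type by -0.62 in mock (SE 0.25, 95% interval -1.17 to -0.08, 1.54-fold lower, unadjusted p = 0.0288, limma adjusted p = 0.721). In NAC it differed by 0.27 (SE 0.25, limma adjusted p = 0.864). NAC against mock gave -0.73 in wild type (SE 0.25, unadjusted p = 0.0129, limma adjusted p = 0.738) and 0.17 in the mutant (SE 0.25, limma adjusted p = 0.969). Single arrays moved both smaller differences by more than 1.5 times. The genotype difference in NAC ranged from 0.067 without wild-type NAC replicate 2 to 0.55 without wild-type NAC replicate 1, and was 0.13 without mutant NAC replicate 3 and 0.48 without mutant NAC replicate 1. The NAC difference in the mutant ranged from 0.025 without mutant NAC replicate 3 to 0.37 without mutant NAC replicate 1, while leaving out replicate 1 or 2 of mutant mock gave 0.32 or 0.057. The genotype difference in mock and the NAC difference in wild type share the wild-type mock arrays. The interaction was 0.90 (SE 0.36, 95% interval 0.12 to 1.67, unadjusted p = 0.0266, limma adjusted p = 0.999). It was 1.13 (limma adjusted p = 0.992) without both arrays of lowest weight, and 0.69 to 1.18 when single arrays were left out. For Ezh1 the genotype difference was therefore not shown to depend on NAC at this number of arrays.

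Counted together, the members showed no common direction between genotypes. Over both treatments 4 were higher and 6 lower in the mutant, with a median difference of -0.04 against 0.0033 for all genes. Groups of 3 arrays that did not overlap were found for 5 of 10 members between genotypes in mock, against 11.4% of all genes: Phc1, Ezh2 and Suz12 higher and Phc2 and Ezh1 lower in the mutant. In NAC this held for 1 of 10, Ezh2, against 12.4% of all genes, and over both treatments for 0 of 10, against 0.546%. With NAC, 7 of 10 were lower over both genotypes, with a median of -0.13 against -0.0017 for all genes. NAC and mock arrays did not overlap for 3 of 10 members in the mutant, Phc1, Phc2 and Cbx7, all lower with NAC, against 10.2% of all genes. In wild type it was 4 of 10, Phc1 and Phc2 lower and Ezh2 and Suz12 higher, against 10.7%. The genotype and NAC comparisons share arrays, so these counts are not independent of each other.

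An unadjusted p under 0.05 was reached by 3 of 10 members for the genotype over both treatments, against 9.08% of all genes, by 4 in mock (6.63%) and by 0 in NAC (7.17%). For NAC it was reached by 3 over both genotypes (7.43%), 1 in the mutant (5.86%) and 3 in wild type (5.92%), and for the interaction by 1 (4.21%). The members were chosen with earlier results of these arrays known, so these shares are descriptions. The median standard error over all genes was 0.16 for a difference between 2 groups and 0.11 for one over both levels of the other factor.

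Some markers of cell state differed between the same groups as some of these values. Association of markers and members across arrays was not tested. The proliferation markers, 11 of 12 listed genes measured, had summed linear signals of 3244 to 3752 in wild-type mock, 3903 to 4003 in mutant mock, 3658 to 3973 in wild-type NAC and 4220 to 4257 in mutant NAC. Like Ezh2 and Suz12, they had their lowest group median in wild-type mock. All 11 were higher in the mutant over both treatments (median 0.13) and all 11 higher with NAC (median 0.15), though none passed limma's test. An unadjusted p under 0.05 was reached by 4 and 2 of them, against 9.08% and 7.43% of all genes. Their part in the Ezh2 and Suz12 differences was not tested. The stem cell markers, 7 of 8 measured, had summed signals of 559.9 to 748.3 in wild-type mock, 619.9 to 769.5 in mutant mock, 531.7 to 568.6 in wild-type NAC and 484.8 to 527.3 in mutant NAC. Like Phc1, they were lower with NAC: 7 of 7 genes, with a median of -0.32 and none passing. Of these stem cell genes, 4 had an unadjusted p under 0.05, against 7.43% of all genes. Granulocyte and monocyte progenitor markers were higher with NAC in 6 of 6 genes (median 0.58, none passing), with summed signals of 4564 to 9109 in wild-type mock, 3143 to 7462 in mutant mock, 7847 to 8848 in wild-type NAC and 6212 to 8566 in mutant NAC. Kit, the stem cell factor receptor used in the sort, read 9.17 to 9.24 in wild-type mock, 9.02 to 9.23 in mutant mock, 8.97 to 9.18 in wild-type NAC and 8.74 to 8.86 in mutant NAC. The mutant NAC arrays lay below all the others, a separation whose share among all genes was not counted. Kit differed by -0.23 with NAC over both genotypes (SE 0.08, unadjusted p = 0.0137, limma adjusted p = 0.514), by -0.30 with NAC in the mutant (limma adjusted p = 0.809) and by -0.17 between genotypes (unadjusted p = 0.0488, limma adjusted p = 0.549). The part of both lists and of Kit in the Phc1, Phc2 and Cbx7 differences was not tested. Beside the genotype differences, stem cell markers were higher in the mutant over both treatments in 5 of 7 genes (median 0.34), none passing. An unadjusted p under 0.05 was reached by 3 that were higher and 1 that was lower, against 9.08% of all genes. In NAC alone 4 of 7 were higher in the mutant. The summed signals of the list were lower there, 484.8 to 527.3 against 531.7 to 568.6 in wild type. The sum weighs bright genes most, and the brightest, Meis1 and Hlf, differed by -0.16 and -0.31 between genotypes in NAC. Lymphoid-primed markers were lower in the mutant in 7 of 7 genes (median -0.82), with summed signals of 1209 to 2117 in wild-type mock, 733.7 to 1286 in mutant mock, 1566 to 1632 in wild-type NAC and 631.2 to 966.5 in mutant NAC. Megakaryocyte markers were higher in 7 of 7 (median 0.46), with summed signals of 195.6 to 262.5, 262.3 to 426.9, 198.1 to 225.6 and 360.4 to 448.1 in the same order. Mature neutrophil markers were lower in the mutant in 6 of 6 genes (median -0.13), with sums of 569.2 to 811.4, 116.9 to 482.2, 774.4 to 1048 and 436.0 to 852.9 in that order. Of these 6, 4 had a mean under the median gene level, so the count gives no direction for the list. The brighter S100a8 and S100a9 differed by -1.05 and -1.19 (limma adjusted p = 0.339 and 0.129), and S100a8 made up most of the sum. B cell markers were lower in the mutant in 5 of 5 measured (median -0.37), with sums of 137.8 to 158.6, 120.5 to 149.2, 148.4 to 188.9 and 98.1 to 173.0. Erythroid markers, 3 of 6 measured, were higher with NAC in 2 of 3, with sums of 96.7 to 291.5, 92.2 to 251.7, 202.4 to 232.0 and 291.7 to 610.7. T cell markers were lower with NAC in 4 of 6 (median -0.05), with sums of 114.6 to 161.3, 113.0 to 151.5, 118.4 to 121.1 and 68.9 to 108.2. Of these 6, 5 had a mean under the median gene level. The brighter Lat made up most of the sum and differed by -0.48 with NAC over both genotypes (limma adjusted p = 0.534). The lowest sum, 68.9, was that of mutant NAC replicate 1, the array of lowest weight. Of the genes in these lists, 1 megakaryocyte gene passed limma's test for the genotype over both treatments. The part of these lists in the Polycomb values was not tested.

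**Figure D3:**
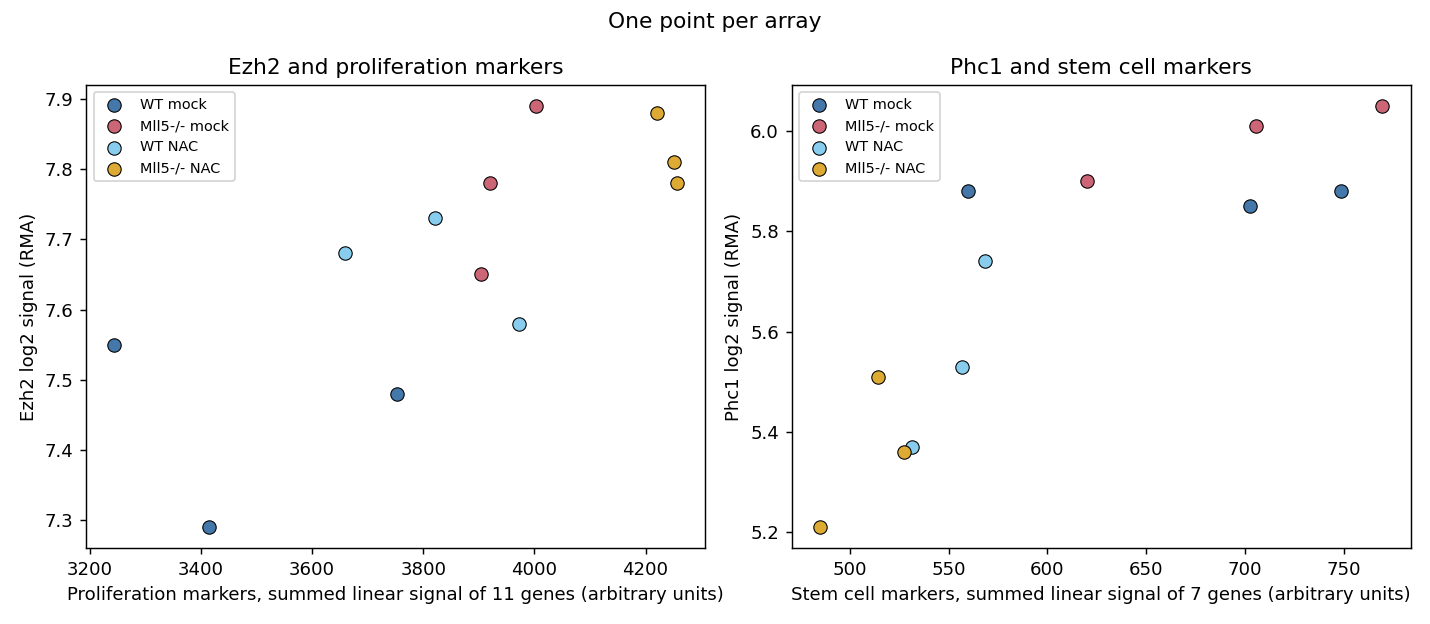
Log2 signal of Ezh2 against the summed linear signal of 11 proliferation markers (left) and of Phc1 against that of 7 stem cell markers (right), 1 point per array and 1 colour per group. Wild-type mock arrays had Ezh2 signals of 7.29 to 7.55 at proliferation sums of 3244 to 3752, and mutant NAC arrays had Phc1 signals of 5.21 to 5.51 at stem cell sums of 484.8 to 527.3; points of 1 group share their treatment and genotype.

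The remaining Polycomb genes gave no call in any comparison. Of the listed genes, 32 were analysed here. Over both treatments 18 were higher and 14 lower in the mutant (median 0.04), and 3 had an unadjusted p under 0.05, against the 9.08% of all genes. With NAC over both genotypes 16 were higher and 16 lower, and 1 had an unadjusted p under 0.05, against 7.43% of all genes. Kdm6b, a demethylase that removes the PRC2 mark, differed by -0.43 between genotypes (SE 0.16, unadjusted p = 0.0156, limma adjusted p = 0.42). Its mean was 6.54 ± 0.33 (SD, n = 3) in mutant NAC and 7.06 ± 0.13 to 7.31 ± 0.12 in mutant mock and wild-type NAC, with wild-type mock at 7.16 ± 0.49. Phf1, a Tudor-domain partner of PRC2, was at 4.61 ± 0.39 in mutant mock and 5.23 ± 0.14 in wild-type mock, a difference of -0.62 (SE 0.19, limma adjusted p = 0.609), and at 5.02 ± 0.27 and 5.04 ± 0.09 in mutant and wild type with NAC. Scml2, a PRC1-associated protein, differed by 0.41 over both treatments (SE 0.14, limma adjusted p = 0.412), from signals near the median gene level. Rybp, a subunit of variant PRC1, differed by -0.23 (limma adjusted p = 0.574) between genotypes. Its close relative Yaf2 differed by 0.34 with NAC (SE 0.11, unadjusted p = 0.00692, limma adjusted p = 0.456), the smallest p of this list in that comparison, followed by the corepressor Bcorl1 (-0.19), Rybp (-0.19) and Jarid2, an accessory subunit of PRC2 (0.16). Rnf2, the second ubiquitin ligase of PRC1, read 7.25, 7.30 and 7.10 in wild-type mock, 7.05, 6.81 and 6.91 in mutant mock, 6.97, 6.71 and 7.03 in wild-type NAC and 7.09, 6.79 and 7.05 in mutant NAC. The wild-type mock arrays lay above all the others, though narrowly, at 7.10 for their lowest against 7.09. How many of all genes had such a separation was not counted. Rnf2 differed between genotypes by -0.29 in mock (SE 0.13, unadjusted p = 0.0473, limma adjusted p = 0.744) and by 0.07 with NAC, which averages to -0.11. With NAC in wild type, from the same mock arrays, it differed by -0.31 (SE 0.13, unadjusted p = 0.0359, limma adjusted p = 0.833). Eed, the third core subunit of PRC2, had a genotype difference of 0.10 over both treatments.

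**Figure D4:**
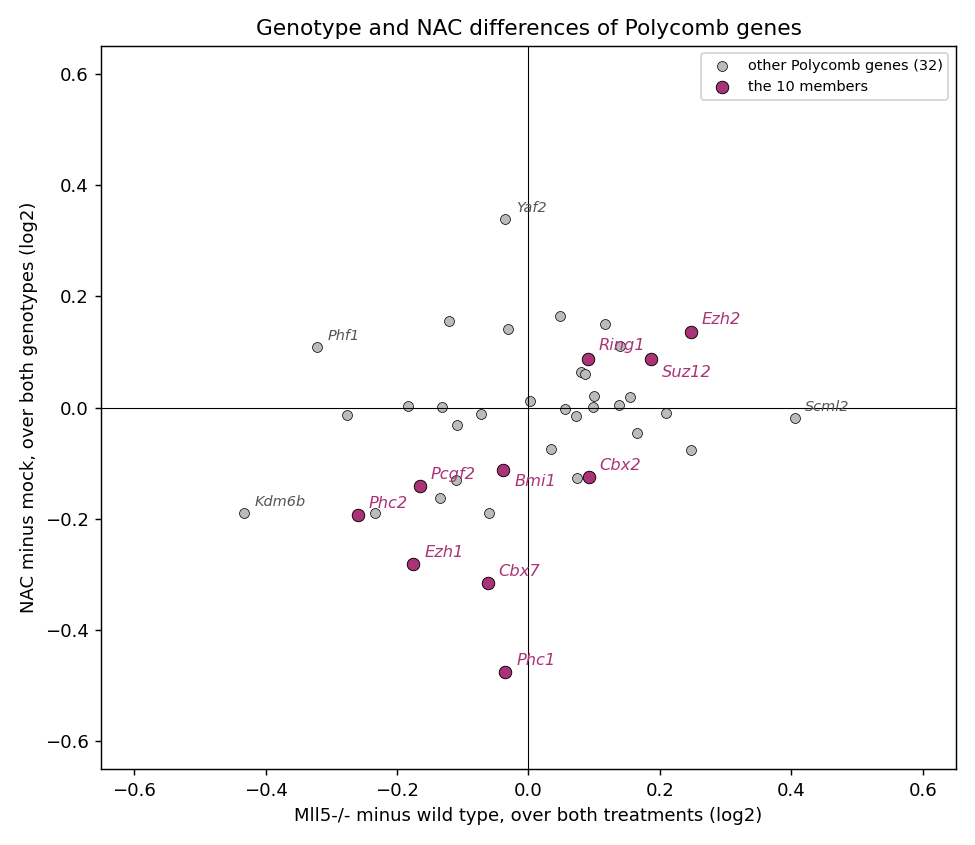
Log2 difference of mutant minus wild type over both treatments (x axis) and of NAC minus mock over both genotypes (y axis) for the 10 members and 32 other Polycomb genes, 1 point per gene. Phc1 lies lowest, at -0.48 with NAC and -0.04 between genotypes, and Ezh2 and Suz12 lie to the upper right at 0.25 and 0.19 between genotypes; none of the 42 genes passed limma's test on either axis.

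Genes known as Polycomb targets gave no call either. Of 15 listed, 14 were measured, all but T. Over both treatments 5 were higher and 8 lower in the mutant (median -0.04), and with NAC 3 were higher and 11 lower (median -0.04). Cdkn2a, Ebf1, Gata6, Pax6, Sox17, Hoxd11, Hoxd13, Lin28b and Igf2bp3 had a mean under the median gene level. Most of the list was therefore dim, and these counts give no direction for Polycomb targets. Cdkn2a, the cell cycle inhibitor that Bmi1 is known to silence, lay between 2.52 and 3.15 on all arrays, under the median gene level, and differed by -0.13 between genotypes (95% interval -0.38 to 0.12). Igf2bp3, an RNA-binding protein of fetal cells, had the smallest p between genotypes, with a difference of -0.36 (SE 0.10, unadjusted p = 0.00382, limma adjusted p = 0.315) from signals that were also under the median gene level. Gata6, a developmental transcription factor, followed at 0.15 (limma adjusted p = 0.682), from signals of 2.08 to 2.60. With NAC the smallest p belonged to Hmga2, a chromatin protein of fetal stem cells (-0.35, limma adjusted p = 0.785), and Pax5, a B cell transcription factor (-0.15, limma adjusted p = 0.825).

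Ezh1 and Pcgf2 varied most of the 10 members over the 12 arrays, with SDs of 0.43 and 0.35. Among 11090 other genes at or above the median gene level, those most like Ezh1 across the 12 arrays were Exoc6b (Pearson r = 0.90), Slco4a1 (0.89), Tgif1 (0.88), Glipr2 (0.85) and Hid1 (0.85). Those most like Pcgf2 were Hoxa3 (0.91), Arhgap33 (0.89), Nr0b2 (0.85), Orai1 (0.85) and Lrp10 (0.85). Both lists hold the highest of 11090 values of r over 12 arrays, a choice that favours high values. The lowest and the highest Pcgf2 signals, 3.48 and 4.73, were both in mutant NAC and weigh most in its r. Arrays share their group and their normalization, so these values of r are descriptions of likeness with no p-value.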

How the data were processed

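Biotin-labelled total RNA of the sorted cells was measured on 12 Affymetrix arrays. The deposited values are log2 signals that the authors made with RMA in Affymetrix Power Tools, per the submitters' processing notes. RMA gives all arrays 1 distribution of probe intensities before these are summarized per probe set. The summarized signals need not share 1 distribution, and their array medians were 2.89 to 2.96. No source states the log base, which was taken from the range, 0.74 to 13.23. Of 41345 probe sets, 23521 carried 1 symbol, and the brightest per symbol was kept (22180 genes, none filtered).

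Groups follow the samples' descriptions. limma 3.58.1 (R 4.3.3; lmFit and eBayes) fitted group means to the 12 arrays together, with 7 contrasts, Benjamini-Hochberg adjustment over all genes at 0.05 and moderated 95% intervals; the code was tested on simulated data. Members and lists were chosen with earlier results of these data known. The rule named the 10 members, Kmt2e, Kit, other Polycomb and target genes that passed or had the smallest p (4 and 2 each for genotype and for NAC), and 5 genes most like each of the 2 most variable members. Rnf2, Eed, Cdkn2a and the mock difference of Phf1 were added after their values were seen.

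Alternatives were a dim-gene filter at the median, array weights, median centring, renewed quantile normalization, eBayes with trend and robust, the mean over probe sets, a block for the replicate number, a fit of the 2 compared groups alone, an adjusted p under 0.10 and leaving out each array. Leaving out both arrays of lowest weight was chosen after seeing the data. Promoters are from RefSeq (GRCm38.p6), and figures were made in matplotlib 3.10.9 (Python 3.11.15).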

Additional observations from a re-analysis of the deposited data

How the results depend on the processing

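Under all alternatives run, in each of the 7 comparisons, 0 of the 10 members were called, and the lowest adjusted p of any member was 0.145, that of Phc1 with NAC over both genotypes among genes at or above the median level. With the replicate number as a block, the count of members called was 0 in all 7 comparisons and the lowest adjusted p was 0.179. Arrays of the same number in different groups had deviations correlated at -0.06 to 0.06 (18 pairs). The labels do not say whether the numbers pair the samples. Correlations over all genes cannot decide it, since pairing that touches few genes would not appear in them. Of 1440 alternative values of the members' 70 differences, 1398 kept their sign. The 42 that turned belonged to 15 differences of at most 0.12 in size. Many of the 1440 could not turn, since some alternatives leave the size of a difference unchanged. These were the dim-gene filter, trend and robust, the mean over probe sets, the block and the fit of 2 groups. Leaving out an array of a group not compared does so too. The 1398 is therefore no measure of stability. Ring1 between genotypes in mock became 0.017 with array weights and 0.14 without both arrays of lowest weight, and with NAC in wild type 0.0029 and 0.14. Pcgf2 between genotypes in mock became -0.013 on centring and -0.02 without both arrays. The interaction of Cbx7 became 0.013 on centring, 0.020 with quantile normalization and 0.025 without both arrays. Leaving out 1 array in turn gave ranges that cross 0 for 15 differences. Over both treatments, the genotype difference ranged from -0.10 to 0.033 for Bmi1, -0.13 to 0.0050 for Cbx7 and -0.079 to 0.013 for Phc1. In mock it ranged from -0.073 to 0.19 for Bmi1, -0.28 to 0.14 for Cbx2, -0.14 to 0.067 for Cbx7, -0.07 to 0.15 for Pcgf2 and -0.13 to 0.14 for Ring1, and in NAC from -0.22 to 0.06 for Cbx7. With NAC in the mutant, Cbx2 ranged from -0.18 to 0.24 and Ezh2 from -0.012 to 0.11. With NAC in wild type, Bmi1 ranged from -0.14 to 0.12, Pcgf2 from -0.075 to 0.17 and Ring1 from -0.13 to 0.14. The interaction of Cbx7 ranged from -0.17 to 0.11. The cause of these turns was not tested. With 3 arrays a group, a missed threshold does not show that groups were alike.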
